A study of Homo sapiens with 647 samples.

Results

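The data described here compare T47D cells that received palbociclib, FGF2 and FIIN-3 with T47D cells that received palbociclib and FGF2 without FIIN-3, in the parental and GFP control lines. Libraries were chosen by their titles alone, with the line as a factor, and 19 of the 647 libraries of the series qualified. The arm with FIIN-3 held 10 libraries, 4 parental and 6 GFP. The arm without FIIN-3 held 9 libraries, 4 parental and 5 GFP. T47D is an estrogen receptor positive human breast cancer line of luminal type. The parental line carries no construct, and the GFP line was infected with a pLX307 lentivirus encoding green fluorescent protein, so neither line carries an added FGF receptor or ligand. Cells stood in 96-well plates for 48 h before the agents were added, and the agents acted for 24 h. Palbociclib, an inhibitor of the cyclin D kinases CDK4 and CDK6, was used at 1 µM and was present in every library of the main comparison. FIIN-3, a covalent inhibitor of the FGF receptor kinases, was used at 100 nM. The dose of the ligand FGF2 is not given in the sources used here. Comparison arms were palbociclib alone in the same 2 lines (11 libraries), FGF2 with or without FIIN-3 and no palbociclib in the same lines (12 libraries each), and palbociclib with FGF2, with or without FIIN-3, in a line infected with an FGFR1 lentivirus (6 libraries each). The labels do not say that the libraries of a group came from separate cultures, so the p-values measure the spread between these libraries, which may be technical.

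FGF2 binds FGF receptors at the cell surface, which phosphorylate the adaptor FRS2 and recruit GRB2 and SOS to activate RAS, RAF, MEK and ERK. Active ERK induces its own inhibitors, among them the phosphatases DUSP4 and DUSP6 and the Sprouty and SPRED proteins, together with growth genes such as CCND1, which encodes cyclin D1. Cyclin D1 with CDK4 or CDK6 phosphorylates RB1 and releases the transcription of S phase genes, which is the step that palbociclib blocks. In luminal breast cells the FGF receptor pathway and the estrogen receptor are known to influence each other's target genes.

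Each library held between 1724453 and 4283576 counted reads in the 2 arms of the main comparison, with medians of 2914568.5 with FIIN-3 and 2834479 without. The share of counts from mitochondrially encoded genes had a median of 27.4% with FIIN-3 and 25.9% without, and no library of either arm was shallow or stood apart. Luminal markers were present in all 19 libraries, with summed levels of 23921 to 34971 CPM (counts scaled to a library of 1e+06 reads) with FIIN-3 and 20949 to 23994 CPM without. Markers of other cell types (15 genes) summed to 23.2 to 38.96 CPM with FIIN-3 and 19.7 to 39.3 CPM without, 6 and 5 of them at 0 in every library of the respective arm. COL1A1, a collagen gene, gave most of that sum at medians of 24.9 and 26.1 CPM and a log2 fold change of -0.00. Among the palbociclib-alone libraries, 1 parental library stood apart, with 1.56% of its counts in the mitochondrial ribosomal RNA MT-RNR2 against an arm median of 20.02%, and every comparison with that arm is given with and without it. In bulk RNA, fewer cells of a kind and less RNA per cell cannot be told apart. SMART-Seq2 does not mark the strand, so reads of overlapping genes on opposite strands cannot be told apart either.

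With both control lines in 1 fit, FIIN-3 lowered DUSP6, DUSP4, SPRED2, CCND1 and IVL and raised LRRC8D, SERPINA6, HSPB1 and KRT8. With edgeR's quasi-likelihood test and Benjamini-Hochberg adjustment, 1052 of 10717 genes tested (9.82%) passed an adjusted p of 0.05, of which 531 were higher (4.95%) and 521 were lower (4.86%). The median log2 fold change over all tested genes was 0.01. The shares of 4.95% higher and 4.86% lower are the background for the counts of list members below. The lists were chosen with earlier results of these data known, so their counts are descriptive. Fold changes compare the arm with FIIN-3 with the arm without it, and errors on log2 values are standard errors. On the second deposited table, limma called 1110 genes, of which 22.2% were higher, against 50.5% with edgeR. CPM ranges of the 2 arms did not overlap for 80 genes that were higher with FIIN-3 (0.746% of genes tested) and 54 that were lower (0.504%).

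**Figure D1:**
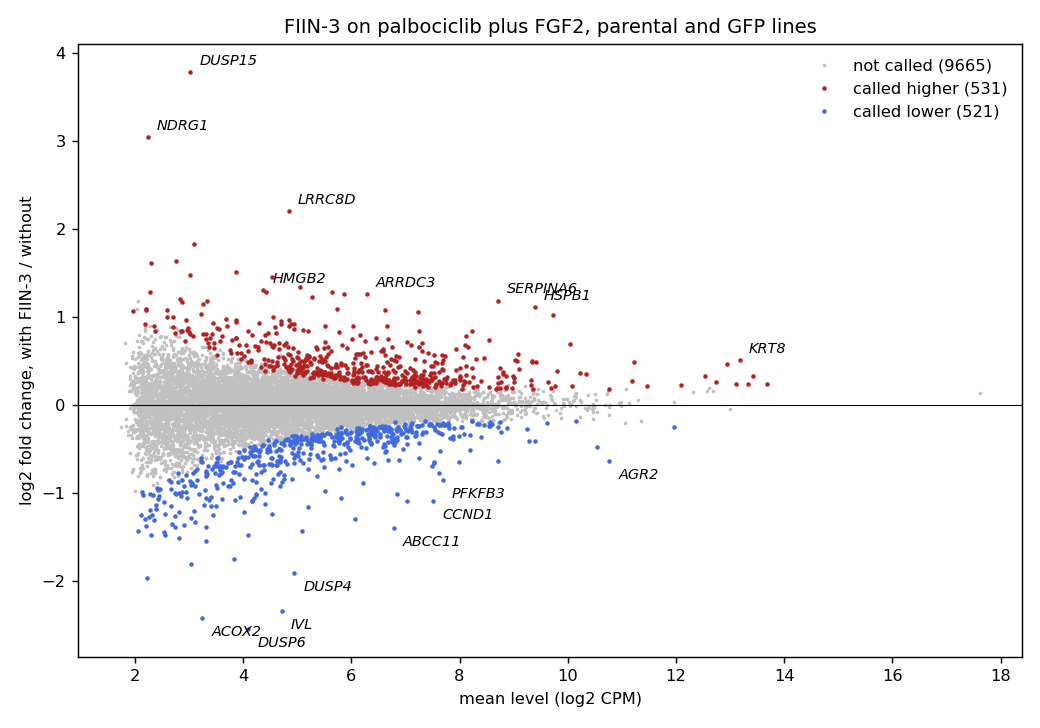
Each point is 1 of the 10717 genes tested, with its mean level in log2 CPM on the x axis and its log2 fold change with FIIN-3 over without on the y axis. Red points (531) were called higher and blue points (521) lower; DUSP15 lies highest at 3.78 and DUSP6 lowest at -2.55.

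The upstream sequences of 3 called genes are shown because they carry short motifs that ERK-responsive AP-1 or forkhead factors are known to bind; they were picked after the search. Each run is the 250 bases before the RefSeq start of the gene (GRCh38.p14), written 5′ to 3′ on the gene's strand in lower case, with the motif in capitals. IVL, which fell, lies at chr1:152908296-152908545 on the plus strand, and the capitals mark the AP-1 letters TGANTCA. SERPINA6 and BTG1, which rose, lie at chr14:94323337-94323586 and chr12:92145847-92146096, both on the minus strand, and the capitals mark the forkhead letters GTAAACA read on the opposite strand.
IVL: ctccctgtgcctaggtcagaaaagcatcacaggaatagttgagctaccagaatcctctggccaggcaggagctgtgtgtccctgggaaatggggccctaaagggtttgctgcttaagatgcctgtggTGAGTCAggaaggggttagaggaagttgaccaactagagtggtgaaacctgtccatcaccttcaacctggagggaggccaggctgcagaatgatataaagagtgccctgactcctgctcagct
SERPINA6: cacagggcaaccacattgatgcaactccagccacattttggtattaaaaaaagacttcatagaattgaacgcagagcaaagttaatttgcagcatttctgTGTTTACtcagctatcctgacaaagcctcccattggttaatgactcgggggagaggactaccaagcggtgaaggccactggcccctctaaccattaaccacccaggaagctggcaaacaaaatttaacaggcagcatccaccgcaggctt
BTG1: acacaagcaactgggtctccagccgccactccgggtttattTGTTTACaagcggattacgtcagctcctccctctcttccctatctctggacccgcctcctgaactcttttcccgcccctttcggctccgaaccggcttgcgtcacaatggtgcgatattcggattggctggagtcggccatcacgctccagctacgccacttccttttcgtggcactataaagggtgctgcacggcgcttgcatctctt

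Both strands of these 250-base windows were searched, in the 8135 of 10717 tested genes whose symbol matched the RefSeq table. GTAAACA occurred upstream of 14 of 407 genes called higher (3.44%), of 0.988% of genes called lower and of 1.84% of genes tested. TGANTCA occurred upstream of 6.63% of genes called higher, 3.95% of genes called lower and 3.39% of genes tested. The ETS letters CCGGAAGT occurred upstream of 7.13%, 4.94% and 8.3% respectively. Over all 27305 windows of the table the shares were 2.98% for GTAAACA, 6.6% for TGANTCA and 3.64% for CCGGAAGT. A match describes letters in a window and is not a measured binding site.

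FIIN-3 targets the FGF receptors at the top of the pathway. Whether it also acted on other kinases, EGFR among them, was not tested here. Per transcript length, FGFR4 was the most abundant FGF receptor in the arm without FIIN-3, with a median of 19.3 TPM (transcripts scaled for length and depth). FGFR2 followed at 3.93 TPM and FGFR1 at 2.02 TPM. FGFR3 had a median of 0.532 TPM, with 29 reads over the 9 libraries, and did not pass the count filter. Of the 13 tested receptors and adaptors, 2 rose and 1 fell, against 4.95% and 4.86% of all genes tested. FRS2, the docking adaptor of FGF receptors, ranged from 9.57 to 26.7 CPM (median 15.9) without FIIN-3 and from 21.8 to 38.01 CPM (median 29.02) with it. Its log2 fold change was 0.70 ± 0.14 (edgeR adjusted p = 0.00025). FGFR2 rose by 0.48 ± 0.15 on the log2 scale (edgeR adjusted p = 0.0318), from a median of 12.7 to 17.9 CPM. GAB1, an adaptor that couples receptors to PI3 kinase and SHP2, fell by 0.48 (edgeR adjusted p = 0.0489), and its ranges of 14.6 to 22.5 CPM without and 6.28 to 18.1 CPM with FIIN-3 overlapped. With no filter on low counts neither FGFR2 nor GAB1 passed (edgeR adjusted p = 0.101 and 0.0900), and FGFR2 did not pass with limma either (adjusted p = 0.137). Leaving out 1 library at a time ended the call of GAB1 in 14 of 19 fits and that of FGFR2 in 5 of 19, with edgeR adjusted p of up to 0.103 for GAB1 and 0.104 for FGFR2. FGFR1 and FGFR4 did not pass the test, at log2 fold changes of 0.12 ± 0.25 and -0.11 ± 0.12.

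Within the RAS, RAF, MEK and ERK cascade itself, 13 genes are reported: 1 fell, against 4.86% of all genes tested, and 12 were not called. NF1, which encodes a GTPase activator that switches RAS off, fell by 0.39 (edgeR adjusted p = 0.0313), from a median of 42.01 to 31.9 CPM. It did not pass with limma (adjusted p = 0.110), nor in 7 of 19 edgeR fits that left out 1 library (adjusted p up to 0.0766). BRAF, a RAF kinase, was at medians of 8.95 CPM without and 7.91 CPM with FIIN-3.

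Among the lists of FGF receptor pathway genes, the ERK phosphatases and the Sprouty and SPRED inhibitors held the deepest decreases. DUSP6, a cytoplasmic ERK phosphatase, ranged from 19.3 to 35.4 CPM (median 26.01) in the 9 libraries without FIIN-3 and from 0.595 to 9.63 CPM (median 3.34) in the 10 libraries with it. The 2 arms did not overlap, and DUSP6 was 5.84-fold lower (log2 fold change -2.55 ± 0.21). It passed the count filter only through the arm without FIIN-3, so this fold is a value only. DUSP4, a nuclear ERK phosphatase, ranged from 31.1 to 59.5 CPM (median 47.2) without FIIN-3 and from 3.79 to 18.5 CPM (median 13.2) with it. It was 3.77-fold lower, again without overlap (log2 fold change -1.92 ± 0.17, edgeR adjusted p = 6.23e-12). The other tested phosphatases, DUSP1 and DUSP10, did not pass, at 0.38 ± 0.18 and -0.34 ± 0.20. DUSP5, an inducible nuclear ERK phosphatase, had medians of 1.31 and 0.944 CPM and was not tested.

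SPRED2, which restrains RAF activation by RAS, fell from a median of 22.8 CPM (16.5 to 33.2) to 8.25 CPM (5.02 to 14.5), a 2.79-fold decrease (log2 fold change -1.48 ± 0.18, edgeR adjusted p = 1.4e-08). ERRFI1, an inhibitor of ERBB family receptors, fell from a median of 49.2 CPM (37.4 to 58.1) to 21.4 CPM (11.6 to 33.3), a 2.24-fold decrease (edgeR adjusted p = 2.82e-09). The libraries of both arms were fully separated for each of these genes. SPRY1 did not pass, at -0.16 ± 0.28. SPRY4 was too low to be tested: it had 38 reads in the 9 libraries without FIIN-3, 1 of them at 0, and 4 reads in the 10 libraries with it, 8 of them at 0. SPRED1 had 25 and 17 reads, and SPRY2 had 33 and 24 reads in the same arms. ETV4 and ETV5, PEA3 family factors that are common readouts of FGF signalling, had medians of 0 CPM in both arms and were not tested. ETV5 had 16 reads in the arm without FIIN-3, where 5 of 9 libraries were at 0, and 0 reads in all 10 libraries with it. ETV4 had 5 and 4 reads.

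**Figure D2:**
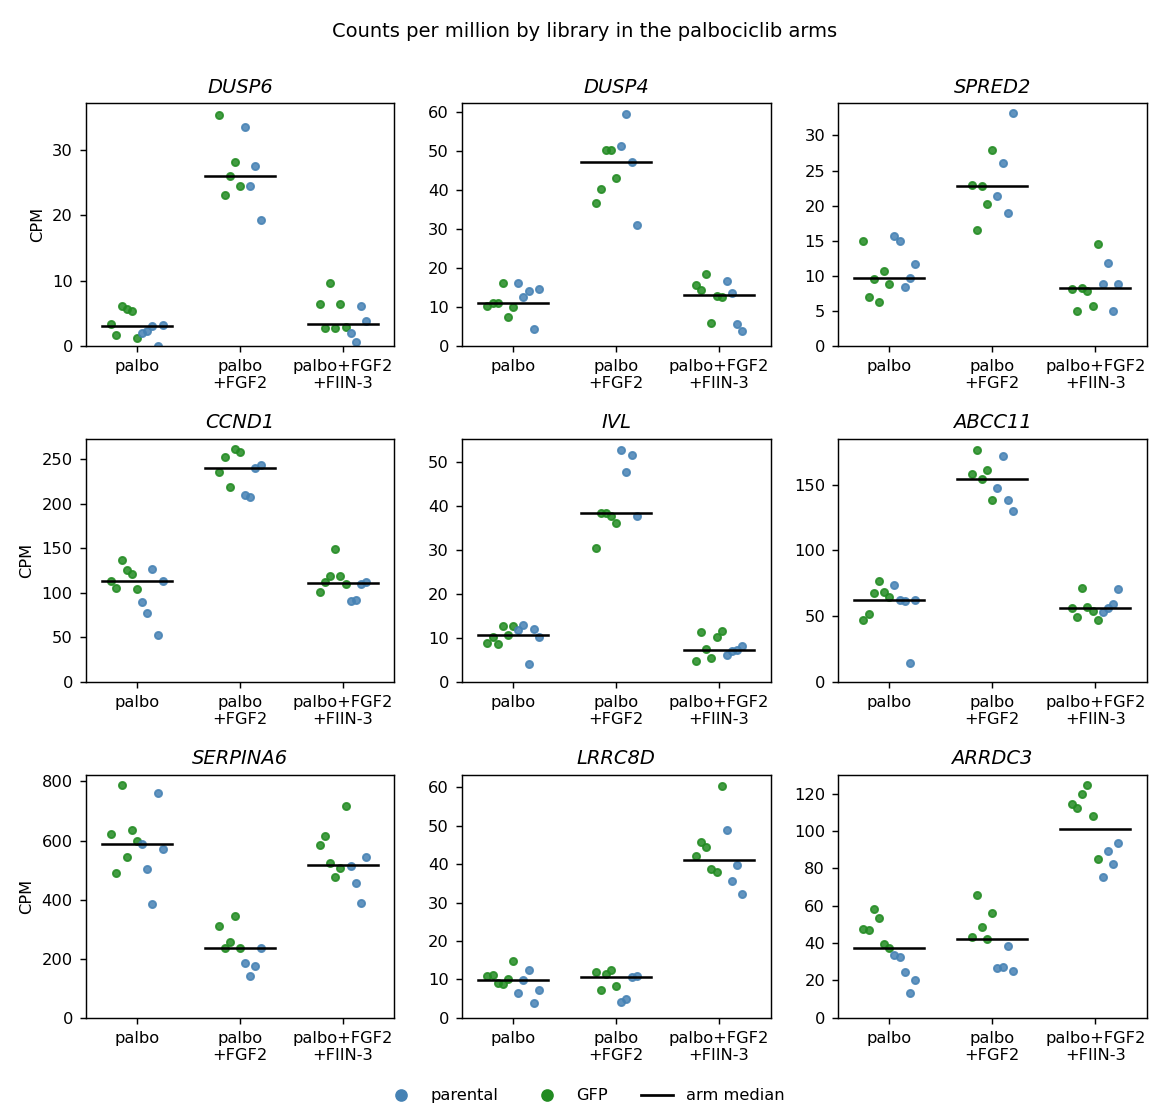
Each point is 1 library, with its level in CPM on the y axis from 0, by arm on the x axis (palbociclib alone, palbociclib plus FGF2, and both plus FIIN-3); blue is parental, green is GFP and the bar is the arm median. DUSP6, DUSP4, SPRED2, CCND1, IVL and ABCC11 peak in the FGF2 arm, SERPINA6 is lowest there, and LRRC8D and ARRDC3 are high with FIIN-3 only.

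Among 7 other ERK output genes tested, 3 fell and none rose, against 4.86% and 4.95% of all genes tested. CCND1 ranged from 207.6 to 261.6 CPM (median 240.2) without FIIN-3 and from 91.2 to 148.8 CPM (median 110.9) with it, with no overlap. It was 2.13-fold lower (log2 fold change -1.09 ± 0.07, edgeR adjusted p = 1.68e-16). PHLDA1, a pleckstrin homology domain protein, fell from a median of 86.05 to 49.2 CPM (log2 fold change -0.89 ± 0.09, edgeR adjusted p = 5.93e-11). PHLDA2 fell by 0.89 ± 0.28 (edgeR adjusted p = 0.0295), from a median of 8.97 to 4.37 CPM with overlapping ranges, and did not pass in 6 of 19 edgeR fits that left out 1 library (adjusted p up to 0.0767). TGFA, AREG, EMP1 and EPHA4 did not pass, at log2 fold changes from -0.29 to 0.46.

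Immediate early genes differed in direction. Of 9 tested, IER3, FOSL2 and ATF3 rose, JUNB fell and 5 did not pass, while 4.95% of all genes tested rose and 4.86% fell. FOSL2, an AP-1 subunit, went from a median of 7.43 to 12.5 CPM (log2 fold change 0.81 ± 0.24, edgeR adjusted p = 0.0258). ATF3, a stress-inducible factor, went from 3.75 to 6.88 CPM (0.82 ± 0.26, edgeR adjusted p = 0.0373). JUNB, another AP-1 subunit, went from 19.1 to 13.1 CPM (-0.58 ± 0.17, edgeR adjusted p = 0.0169). IER3 and FOSL2 did not pass with limma (adjusted p = 0.128 and 0.139), nor ATF3 with no filter (edgeR adjusted p = 0.0882). With 1 library left out, ATF3 lost its call in 12 of 19 edgeR fits (adjusted p up to 0.0754) and FOSL2 in 4 of 19 (adjusted p up to 0.0570). MYC did not pass, at 0.35 ± 0.14 and medians of 32.4 and 41.8 CPM. EGR1, FOS and FOSL1 had medians between 0 and 1.22 CPM in both arms and were not tested. Of the ETS factors, ELF3, an epithelial member, rose from 60.4 to 70.95 CPM (median 65.4) to a median of 124.8 CPM (highest 135.1) with no overlap (0.89 ± 0.07, edgeR adjusted p = 6.03e-14). ELK1, a partner of serum response factor, fell by 0.33 (edgeR adjusted p = 0.0174).

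Beyond the pathway lists, the 15 genes with the largest decreases among those above a mean of 3 log2 CPM and of 1 sign in both lines included secreted, transport and differentiation genes. IVL, which encodes the squamous envelope protein involucrin, ranged from 30.4 to 52.7 CPM (median 38.5) without FIIN-3 and from 4.87 to 11.6 CPM (median 7.37) with it. It was 5.07-fold lower with no overlap (log2 fold change -2.34 ± 0.15, edgeR adjusted p = 1.68e-16). ACOX2, a peroxisomal oxidase of bile acid intermediates, fell from a median of 13.7 CPM (11.8 to 19.6) to 1.49 CPM (1.19 to 5.96), a 5.36-fold decrease. It passed the count filter only through the arm without FIIN-3, so this fold is a value only. ABCC11, an efflux transporter of conjugated steroids, fell from a median of 154.4 CPM (130 to 176.4) to 56.4 CPM (47.4 to 71.5), a 2.64-fold decrease and the smallest adjusted p of all genes (1.05e-17, edgeR).

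3 members of the ABCC transporter family were among those decreases. ABCC3, an efflux pump of organic anions, fell by 1.44 ± 0.14 (edgeR adjusted p = 9.65e-11), and ABCC12 fell by 1.39 ± 0.24 (edgeR adjusted p = 3.61e-05). ABCC11 and ABCC12 lie close together on chromosome 16 (RefSeq, GRCh38.p14), with upstream windows at chr16:48247540-48247789 and chr16:48155994-48156243 on the minus strand. DLL1, a Notch ligand, fell from a median of 13.4 CPM (9.15 to 19.1) to 3.90 CPM (1.19 to 8.17), with no overlap (-1.55 ± 0.24, edgeR adjusted p = 4.26e-06). MYEOV fell by 1.75 ± 0.17 and FMOD, a collagen-binding proteoglycan, by 1.81 ± 0.25 (edgeR adjusted p = 1.57e-10 and 6.86e-07). SLC16A3, which exports lactate, fell by 1.29 ± 0.25 (edgeR adjusted p = 0.000258). EPB41L2 and SHISA2 fell by 1.33 and 1.25 on the log2 scale, and the last member was a transcript named only after its clone.

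Increases of similar size were led by DUSP15, a phosphatase distinct from the ERK phosphatases. It had 25 reads over the 9 libraries without FIIN-3, 3 of them at 0, and no library with FIIN-3 was at 0. Its levels were 0 to 2.09 CPM without and 7.602 to 17.2 CPM (median 11.7) with FIIN-3. It passed the count filter only through the arm with FIIN-3, so its log2 fold change of 3.78 ± 0.33 is a value only. LRRC8D, a subunit of volume-regulated anion channels, ranged from 4.18 to 12.4 CPM (median 10.6) without FIIN-3 and from 32.2 to 60.4 CPM (median 41.05) with it. It was 4.59-fold higher with no overlap (log2 fold change 2.20 ± 0.15, edgeR adjusted p = 1.56e-15). ARRDC3, an arrestin-fold adaptor of receptor trafficking, rose from a median of 42.2 CPM (25.2 to 65.9) to 100.9 CPM (75.5 to 124.4), 2.39-fold (edgeR adjusted p = 8.88e-14). PCLO, which encodes the large scaffold protein piccolo, rose from a median of 30.2 to 66.5 CPM (1.26 ± 0.13, edgeR adjusted p = 1.88e-10).

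STC1, a secreted glycoprotein hormone, rose from a median of 3.33 CPM (0 to 6.37) to 11.1 CPM (5.07 to 17.6), and the ranges overlapped (1.83 ± 0.27, edgeR adjusted p = 1.91e-06). SLC16A14, a monocarboxylate transporter family member, and GPRC5A, an orphan receptor, rose by 1.51 ± 0.19 and 1.34 ± 0.13 with no overlap between the arms (edgeR adjusted p = 5.59e-08 and 8.88e-11). ADM, which encodes the vasodilator peptide adrenomedullin, rose from a median of 25.4 CPM (20.9 to 32.9) to 68.1 CPM (40.4 to 79.7), 2.43-fold (edgeR adjusted p = 1.76e-13). KRT4, a keratin of stratified epithelium, rose from a median of 10.1 to 29.7 CPM and SYBU from 11.8 to 27.03 CPM (edgeR adjusted p = 3.42e-09 and 5.99e-09). FAM225A, a noncoding RNA gene, ZNF442, a zinc finger gene, and the pseudogene CYP2T1P rose by 1.47, 1.18 and 1.23. How reads that also match other copies were counted is not given in the sources used here, so the value of CYP2T1P is uncertain.

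Estrogen receptor targets moved in both directions. Among 22 tested genes of the receptor and its targets, 7 rose, 3 fell and 12 did not pass, with a median log2 fold change of 0.18. Of all genes tested, 4.95% rose and 4.86% fell. SERPINA6, which encodes corticosteroid-binding globulin, rose from a median of 235.5 CPM (lowest 141.5) to 518 CPM (390 to 718), with no overlap (1.18 ± 0.09, edgeR adjusted p = 1.35e-14). SCUBE2, a secreted protein, rose from a median of 33.02 CPM (15.9 to 38.2) to 62.2 CPM (lowest 38.8), 2.13-fold with no overlap (edgeR adjusted p = 3.23e-09). PGR, which encodes the progesterone receptor, rose from a median of 160 to 211.2 CPM (0.48 ± 0.08, edgeR adjusted p = 1.22e-05). ESR1, the estrogen receptor itself, rose from a mean of 88.81 to 115.3 CPM (0.39 ± 0.09, edgeR adjusted p = 0.00135), and it did not pass with limma (adjusted p = 0.191). GREB1, CXCL12 and OLFM1 rose by 0.26, 0.38 and 0.64.

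The decreases in this list were AGR2, TFF3 and IGFBP4. AGR2, a protein disulfide isomerase family member of the secretory pathway, fell from a median of 2025 CPM (1759 to 2303) to 1357 CPM (1117 to 1383), with no overlap (-0.64 ± 0.06, edgeR adjusted p = 1.92e-11). TFF3, a secreted trefoil peptide, fell by 0.36 ± 0.08 (edgeR adjusted p = 0.000883), and IGFBP4, which binds insulin-like growth factors, by 0.38 ± 0.10 (edgeR adjusted p = 0.00683).

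Luminal identity genes gave more increases than decreases. Of 17 tested, 6 rose and 1 fell, against 4.95% and 4.86% of all genes tested, with a median log2 fold change of 0.15. KRT8, a simple-epithelium keratin, ranged from 6663 to 7659 CPM (median 7140) without FIIN-3 and from 8323 to 12460 CPM with it, without overlap (0.51 ± 0.06, edgeR adjusted p = 5.31e-09). Its partners KRT18 and KRT19 each rose by 0.33 ± 0.06 (edgeR adjusted p = 0.000135 and 3.67e-05). ELF5, a regulator of luminal progenitors, rose from a median of 156.3 to 217.4 CPM (0.48 ± 0.07, edgeR adjusted p = 5.12e-07). GATA3, a luminal master factor, fell by 0.30 ± 0.08 (edgeR adjusted p = 0.00904), from a median of 408 to 339.1 CPM. FOXA1, EPCAM and CDH1 did not pass, at 0.21, 0.12 and 0.05. Among 8 tested basal and squamous genes, 2 rose (KRT4 and KRT15) and 3 fell (IVL, ITGB4 and ANXA1). ANXA1, a phospholipid-binding protein, went from a median of 9.23 to 3.96 CPM (-1.37 ± 0.31, edgeR adjusted p = 0.00204).

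Cell cycle genes were called lower in part, in cells whose CDK4 and CDK6 were already inhibited in both arms. In the cyclin D and CDK inhibitor list, 3 of 11 tested genes fell, against 4.86% of all genes tested, and none rose. After CCND1, these were CCND3, which fell from a median of 50.4 to 34.04 CPM (-0.54 ± 0.10, edgeR adjusted p = 6.74e-05), and CDK6, which fell from 7.07 to 2.26 CPM (-1.35 ± 0.28, edgeR adjusted p = 0.000481). CDKN1A, which encodes the p21 inhibitor, was at medians of 16.7 and 17.5 CPM and did not pass. For G1/S and replication genes, 9 of 19 tested fell, against 4.86% of all genes tested, and none rose. Their median log2 fold change was -0.33. MCM3, a subunit of the replicative helicase, fell from a median of 94.2 CPM (80.8 to 135.6) to 60.9 CPM (48.97 to 71.95), with no overlap (-0.66 ± 0.09, edgeR adjusted p = 1.38e-07). GINS2, another helicase component, fell from 30.1 to 15.8 CPM (-0.92 ± 0.13, edgeR adjusted p = 1.17e-06), and CDC6, which loads the helicase, from 13.8 to 7.25 CPM (-1.07 ± 0.19, edgeR adjusted p = 3.97e-05). PCNA, TK1 and RRM2 did not pass, at -0.11, -0.22 and 0.28.

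In the G2/M and mitosis list, 7 of 23 tested genes fell and 1 rose, against 4.86% and 4.95% of all genes tested. CCNB2, a mitotic cyclin, fell from a median of 26.9 to 15.3 CPM (-0.84 ± 0.15, edgeR adjusted p = 5.91e-05), and KIF23, a cytokinesis kinesin, from 12.3 to 8.21 CPM (-0.76 ± 0.19, edgeR adjusted p = 0.00396). TOP2A, TPX2, TTK, BUB1 and CENPE fell with adjusted p between 0.0194 and 0.0469 (edgeR). TTK did not pass with DESeq2 (adjusted p = 0.104) and BUB1 did not with limma (adjusted p = 0.170), nor in 12 of the 18 edgeR fits with 1 library left out that tested it (adjusted p up to 0.112). HMGB2, a chromatin protein of proliferating cells, went the other way, from a median of 11.1 CPM (6.53 to 14.3) to 25.5 CPM (18.4 to 38.6) with no overlap (1.30 ± 0.16, edgeR adjusted p = 4.08e-08). The proliferation marker MKI67 had medians of 1.65 and 2.02 CPM and did not pass the count filter.

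**Figure D3:**
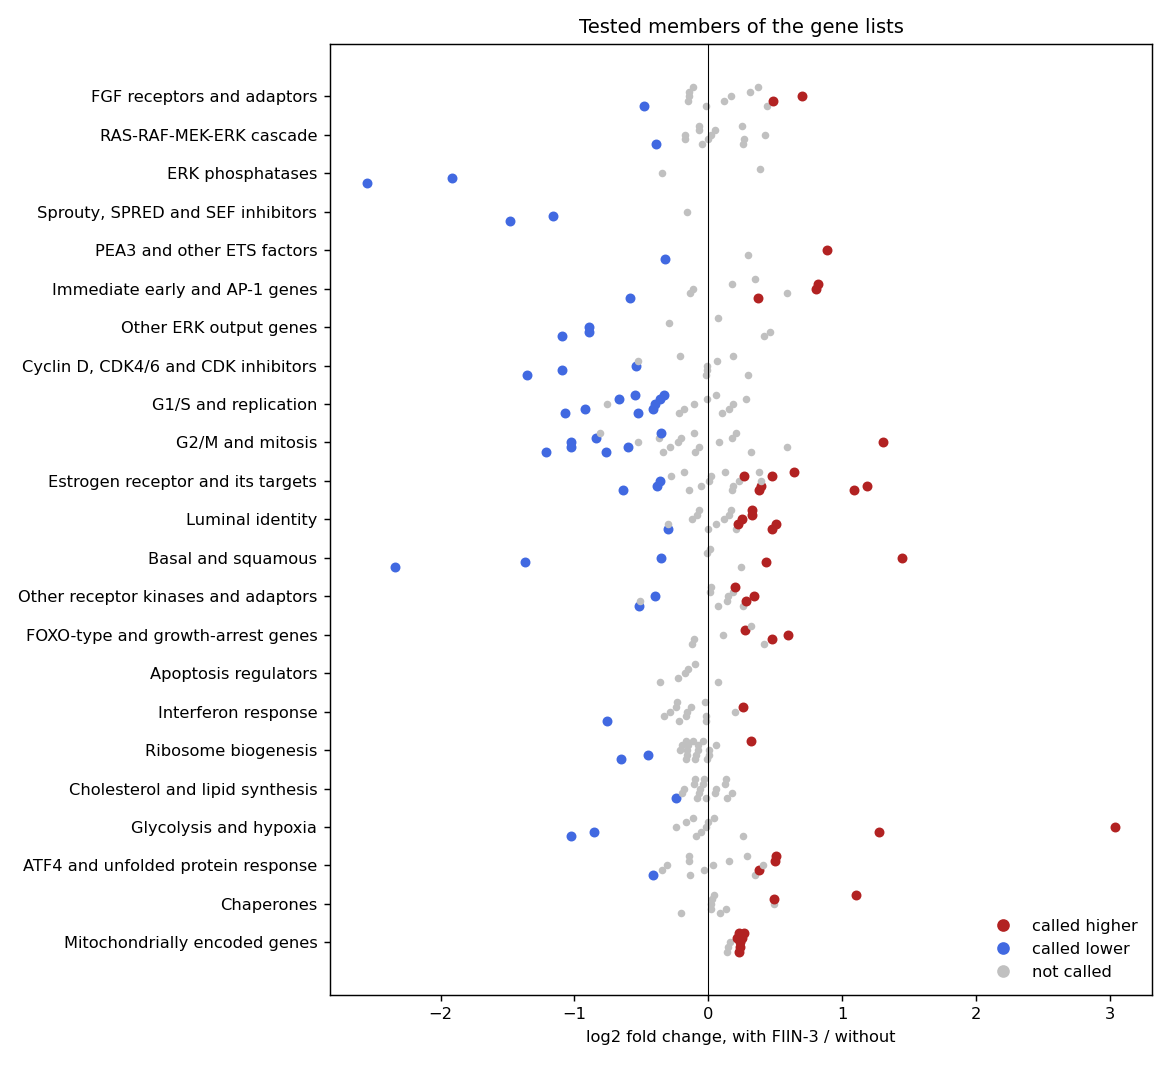
Each point is a tested member of 1 of 23 gene lists, placed by its log2 fold change with FIIN-3 over without on the x axis; red was called higher, blue lower and grey not called. The ERK phosphatases reach -2.55, the G1/S list has 9 blue points and no red point, and the mitochondrially encoded genes lie between 0.14 and 0.27.

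Calls among stress and metabolic genes went in both directions. Of 13 tested glycolysis and hypoxia genes, 2 rose and 2 fell, against 4.95% and 4.86% of all genes tested. NDRG1, a stress-responsive gene counted among those that rose, ranged from 0 to 1.59 CPM without FIIN-3 and from 3.79 to 12.6 CPM (median 5.85) with it. It passed the count filter only through the arm with FIIN-3, so its log2 fold change of 3.04 ± 0.39 is a value only. PFKFB3, which makes the glycolytic activator fructose 2,6-bisphosphate, fell from a median of 250.8 CPM (230.6 to 272.8) to 140.7 CPM (lowest 107.9), with no overlap (-0.85 ± 0.07, edgeR adjusted p = 1.76e-13). EGLN3, an oxygen-sensing hydroxylase, fell from 27.2 to 11.7 CPM (edgeR adjusted p = 1.4e-05). Among 10 tested chaperones, HSPB1 and HSPA1A rose, against 4.95% of all genes tested. HSPB1, the small heat shock protein HSP27, rose from a mean of 390.1 CPM (261.9 to 517) to 842.9 CPM (596 to 1123), without overlap (1.11 ± 0.09, edgeR adjusted p = 1.69e-12). HSPA1A rose by 0.49 ± 0.13 and did not pass with limma (adjusted p = 0.0615), and it shares nearly all its sequence with HSPA1B, so its count is uncertain.

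For ATF4 and unfolded protein response genes, 3 of 15 tested rose (SLC3A2, ATF4 and HERPUD1) and SDF2L1 fell, against 4.95% and 4.86% of all genes tested. SLC3A2, the heavy chain of amino acid exchangers, rose from a median of 409 CPM (370 to 470) to 582 CPM (487 to 685), with no overlap (0.50 ± 0.05, edgeR adjusted p = 2.02e-09). ATF4, the translationally controlled stress factor, rose from a median of 82.4 to 121.8 CPM (0.50 ± 0.08, edgeR adjusted p = 7.89e-06). The FOXO-type and growth-arrest list had 3 of 8 tested genes higher, against 4.95% of all genes tested, and none lower. BTG1, an antiproliferative gene, rose from a median of 64.4 to 82.2 CPM (0.59 ± 0.11, edgeR adjusted p = 8.02e-05), and FBXO32, a ubiquitin ligase subunit, from 52.2 to 68.1 CPM (0.48 ± 0.09, edgeR adjusted p = 8.31e-05). TXNIP, a thioredoxin inhibitor, rose by 0.28 ± 0.07 (edgeR adjusted p = 0.0108) and did not pass with limma (adjusted p = 0.138).

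Other receptor kinases gave small values. DDR1, ERBB2 and ERBB3 rose by 0.34, 0.28 and 0.20, none of which passed with limma (adjusted p = 0.0927, 0.172 and 0.380). PIK3R1, the regulatory subunit of PI3 kinase, fell by 0.52 ± 0.16 (edgeR adjusted p = 0.0239), and the ephrin receptor EPHB3 fell by 0.40 ± 0.11 (edgeR adjusted p = 0.0141). Single libraries without FIIN-3 of the GFP line decided 3 of these calls: without replicate 5 PIK3R1 did not pass, without replicate 3 EPHB3 did not, and without replicate 2 ERBB3 did not (edgeR adjusted p = 0.0524, 0.0560 and 0.0502). Of 6 tested apoptosis regulators 0 passed the edgeR test, and 2 of them (BAK1 and BAD) had an unadjusted p under 0.05; DESeq2 called BAK1 (adjusted p = 0.0363), and limma called BAK1, BAD and BID (adjusted p = 0.0218, 0.00832 and 0.0180). In the remaining lists, 1 of 14 interferon genes rose (B2M) and 1 fell (OAS3), 1 of 20 ribosome biogenesis genes rose (GNL3) and 2 fell (BOP1 and RRS1), and 1 of 17 cholesterol genes fell (SCD). For comparison, 4.95% of all genes tested rose and 4.86% fell. Mitochondrially encoded genes were higher in 7 of 10, by 0.22 to 0.27, beside the higher mitochondrial share of counts with FIIN-3. Whether that share has a part in other increases was not tested. Alternatives were examined for 5 of these, and with limma none of the 5 passed (adjusted p of 0.0936 to 0.232 for MT-CO1, MT-CO2, MT-CO3, MT-CYB and MT-ND2). The other called members, MT-ATP6 and MT-ND4, were not examined in this way. With 1 library left out, MT-CO1 lost its call in 7 and MT-CO2 in 8 of 19 edgeR fits (adjusted p up to 0.0760 and 0.0659), and MT-CYB without the parental library 1 with FIIN-3 (0.0580).

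The parental and GFP lines were compared directly. A test of the difference in the FIIN-3 effect between the lines called 0 of 10717 genes with edgeR, with 545 genes at an unadjusted p under 0.05 and a smallest adjusted p of 0.434. DESeq2 and limma also called 0, and edgeR with no count filter called 4. Fitted alone, the parental line called 3.25% of 10334 genes (1.68% higher, 1.57% lower) and the GFP line 4.89% of 10927 (2.45% higher, 2.43% lower). ACOX2, ABCC12 and HMGB2 were among the leading genes with wide gaps between the lines, and none passed the test of the difference. ACOX2 had a log2 fold change of -3.36 ± 0.41 in the parental line and -1.93 ± 0.32 in the GFP line. ABCC12 had -2.15 ± 0.37 and -0.91 ± 0.28, and HMGB2 had 1.80 ± 0.25 and 0.96 ± 0.19. DUSP6 had -2.96 ± 0.34 in the parental line and -2.32 ± 0.25 in the GFP line, and CCND1 had -1.16 ± 0.11 and -1.05 ± 0.09.

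**Figure D4:**
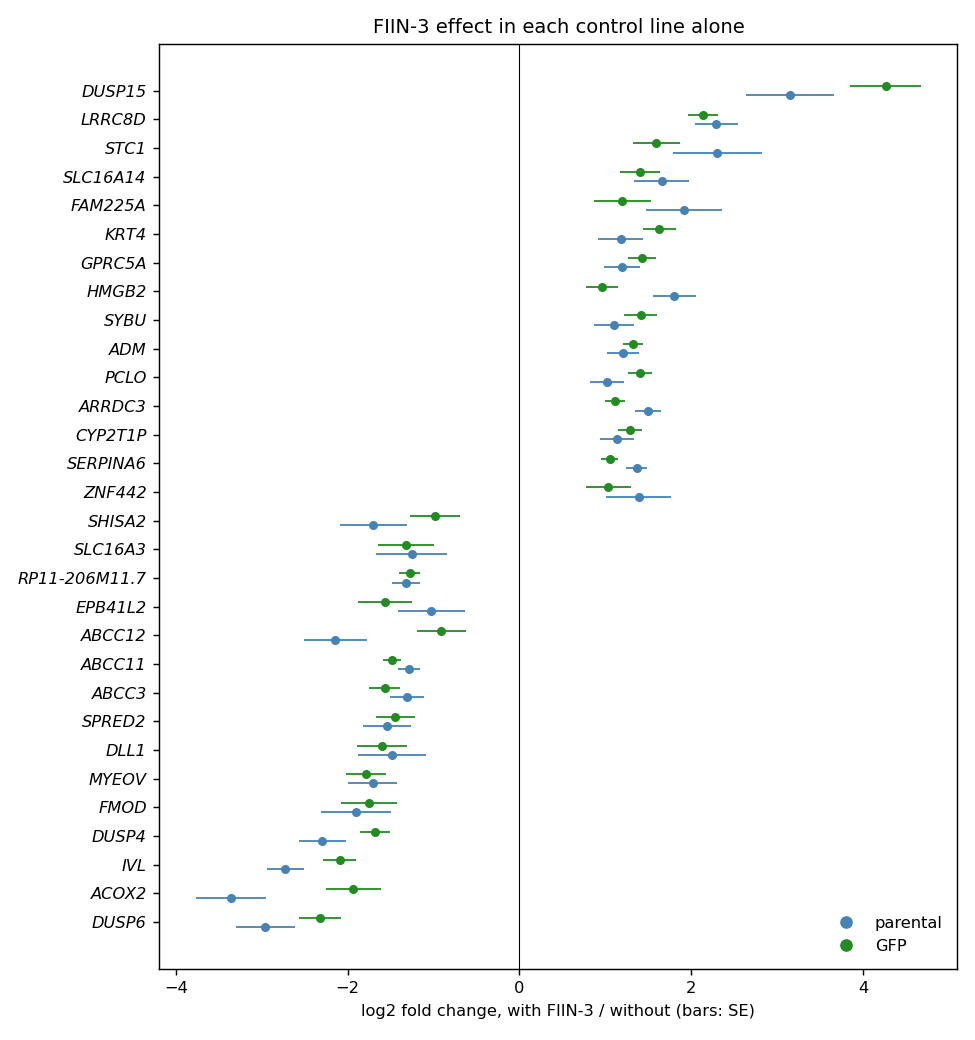
The log2 fold change with FIIN-3 over without is on the x axis for the 15 largest increases and 15 largest decreases, which were chosen to have 1 sign in both lines; blue points are the parental line alone, green points the GFP line alone, and bars are standard errors. ACOX2 (-3.36 parental, -1.93 GFP) and ABCC12 (-2.15 and -0.91) show the widest spacing, followed by DUSP15 (3.15 and 4.26).

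Palbociclib-alone libraries place these changes against the state before FGF2. FGF2 under palbociclib called 120 of 10734 genes (1.12%), 86 higher (0.801%) and 34 lower (0.317%), and 409 genes (3.82%) without the library that stood apart, 2.26% higher and 1.56% lower. That comparison shares the arm without FIIN-3 with the main one, so the values are given side by side only. DUSP6 had 0 to 6.21 CPM (median 3.13) in palbociclib alone, and FGF2 raised it by 3.09 ± 0.25. It passed the count filter only through the arm with FGF2, so this difference is a value only. DUSP4 had a median of 11 CPM in palbociclib alone and FGF2 raised it by 1.94 (edgeR adjusted p = 1.56e-07). CCND1 had a median of 112.9 CPM in palbociclib alone, and FGF2 raised it by 1.16 (edgeR adjusted p = 4.95e-06). IVL rose by 1.95 with FGF2 and ABCC11 by 1.36 (edgeR adjusted p = 1.19e-07 and 7.2e-05). In the other direction, FGF2 lowered SERPINA6 by 1.36 ± 0.15 and STC1 by 2.20 (edgeR adjusted p = 1.18e-05 and 0.00124). For PGR, ESR1 and KRT8 the FGF2 log2 fold changes were -0.46, -0.33 and -0.28 with all libraries, and did not pass (edgeR adjusted p = 0.0600, 0.315 and 0.161). Without the library that stood apart these genes passed, at -0.47, -0.40 and -0.29 (edgeR adjusted p = 0.00129, 0.00284 and 0.000139).

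Set against palbociclib alone, the triple combination called 35 of 10650 genes (0.329%), 33 higher (0.31%) and 2 lower (0.0188%). Without the library that stood apart it called 180 (1.7%), with 1.09% higher and 0.603% lower. For the feedback genes DUSP4 and SPRED2 and the growth gene CCND1 no difference was detected. DUSP4 differed by 0.01 with medians of 11 and 13.2 CPM, CCND1 by 0.06 with medians of 112.9 and 110.9 CPM, and SPRED2 by -0.36 with medians of 9.77 and 8.25 CPM (edgeR adjusted p = 0.992, 0.904 and 0.563). These p-values do not show that the levels were equal. DUSP6 did not pass the count filter of that fit, at medians of 3.13 and 3.34 CPM. SERPINA6, ADM and IVL did not pass either, at -0.17, 0.36 and -0.41.

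A second group of genes exceeded the palbociclib-alone level. LRRC8D had 3.76 to 14.9 CPM in palbociclib alone, FGF2 left it at -0.08 (edgeR adjusted p = 0.910), and with FIIN-3 it stood 4.38-fold above palbociclib alone (edgeR adjusted p = 4.64e-09). ARRDC3 was 2.72-fold above palbociclib alone (edgeR adjusted p = 8.32e-07), with an FGF2 log2 fold change of 0.17. PCLO was 3.12-fold and HMGB2 2.58-fold above palbociclib alone (edgeR adjusted p = 2.91e-05 and 2.72e-05). DUSP15 had 25 reads over the 11 palbociclib-alone libraries, 4 of them at 0, and its fitted log2 difference ranged from 2.60 to 4.77 over the alternatives, so no exact fold is given. SLC16A14, FAM225A, ZNF442, GPRC5A and FBXO32 were higher than palbociclib alone by 1.25, 1.37, 1.04, 0.73 and 0.56 on the log2 scale (edgeR adjusted p of 0.00587 to 0.0329). Alternatives were not examined for these genes singly. CPM ranges of PCLO, SLC16A14, FAM225A, ZNF442 and GPRC5A overlapped those of palbociclib alone. Of all calls of this comparison, limma kept 25.7%, and fits without 1 library kept as few as 68.6%. PIK3R1 was 1 of the 2 genes below palbociclib alone in that fit, at -0.67 (edgeR adjusted p = 0.0400). Without the library that stood apart, further list members passed in both directions. Higher were NDRG1 (1.17), DDIT3 (0.49), ATF4 (0.46), HSPB1 (0.44), BTG1 (0.44), ELF3 (0.42) and HERPUD1 (0.40), of which HSPB1 had -0.08 with that library included. Lower were KIF23 (-0.83), CXCL12 (-0.51), SCD (-0.37), MCM3 (-0.31) and DHCR7 (-0.27).

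The FIIN-3 effect was also measured on FGF2 without palbociclib in the same lines, where 3175 of 12409 genes were called (25.6%). Those libraries had 3630065 to 11121900 counted reads, with medians of 8197335 without and 8885727 with FIIN-3. The lowest total was that of the parental library 2 with FIIN-3, which also had the fewest detected genes of its arm, 15716. Its share of MT-RNR2 was 8.86%, against an arm median of 20.96%. It stayed in the fits, and leaving it out was not tested. The libraries without palbociclib belong to the first of the series' 2 sets of titles, whereas all palbociclib libraries here belong to the second. Palbociclib, depth and set therefore cannot be told apart. For DUSP6, DUSP4, SPRED2, CCND1 and ERRFI1 no difference between the settings was detected. DUSP6 fell by 2.48 ± 0.22 and DUSP4 by 1.86 ± 0.09 without palbociclib, and the differences from the palbociclib setting were -0.07 ± 0.37 and -0.05 ± 0.21 (edgeR adjusted p = 0.953 and 0.935). SPRED2, CCND1 and ERRFI1 differed by -0.20, -0.38 and -0.31 (edgeR adjusted p = 0.712, 0.259 and 0.605). The phosphatase DUSP10 did differ: it rose by 0.61 ± 0.16 without palbociclib and had -0.34 ± 0.20 with it, a difference of -0.93 ± 0.25 (edgeR adjusted p = 0.0214). LRRC8D, ARRDC3 and DUSP15 rose without palbociclib too, by 1.61, 1.85 and 4.12. PHLDA1 was an exception, with 0.01 without palbociclib and a difference of -0.88 ± 0.16 (edgeR adjusted p = 0.000313), as was IVL, with -1.15 and a difference of -1.19 ± 0.23 (edgeR adjusted p = 0.000722).

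Cell cycle genes differed between the settings. The test of the difference called 555 of 13256 genes (4.19%), 2.56% with a higher value under palbociclib and 1.63% with a lower one. That split depended on the scaling: 61.1% of the calls were higher as fitted, 46.7% (of 647 calls) when the TMM reference library was one without palbociclib, and 48.7% to 53.6% in 13 fits that left out 1 library. Without palbociclib all 28 genes of the G2/M list and 28 of 30 G1/S genes fell with FIIN-3, against 12.8% of all genes tested there, with median log2 fold changes of -1.61 and -0.97. Under palbociclib 7 of 23 and 9 of 19 tested members fell. Among members tested in both settings, the difference passed for 17 of 23 G2/M genes and 7 of 19 G1/S genes, each with a higher value under palbociclib, against 2.75% of the 10717 genes tested in both. MKI67 fell by 2.02 ± 0.10 without palbociclib, from a median of 118.6 CPM to 31.2 CPM. Under palbociclib it stood at medians of 1.65 and 2.02 CPM, below the count filter there, so its difference of 2.81 ± 0.36 rests on the libraries without palbociclib and is given as a value only. PLK1, a mitotic kinase, fell by 1.76 ± 0.09 without palbociclib, from 240.3 to 70.3 CPM, and had 0.59 ± 0.27 with palbociclib, where it did not pass (difference 2.35 ± 0.25, edgeR adjusted p = 5.34e-09). HMGB2 fell by 0.81 ± 0.09 without palbociclib and rose by 1.30 under it, a difference of 2.13 ± 0.18 and the smallest adjusted p of that test (3.49e-12, edgeR). AURKB, IQGAP3 and SLC43A3 had differences of 2.23, 2.45 and 2.17 at levels of 0 to 6.39 CPM in both palbociclib arms, below the count filter there, and are likewise given as values only.

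**Figure D5:**
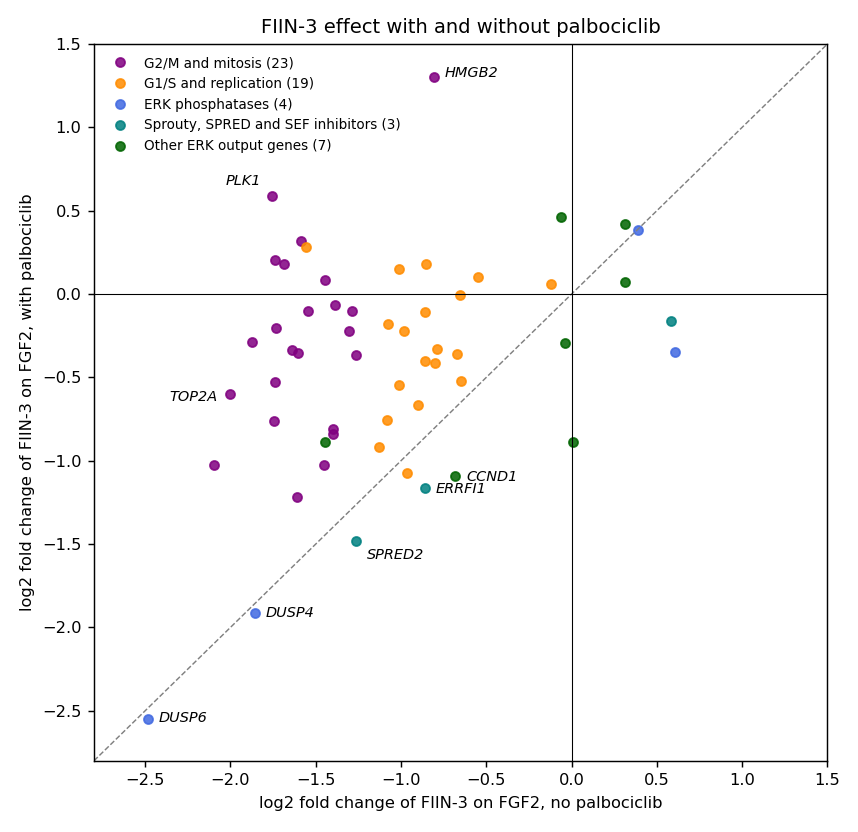
Each point is a gene of 5 lists, with the log2 fold change of FIIN-3 on FGF2 without palbociclib on the x axis and with palbociclib on the y axis; the dashed line marks equal values. DUSP6, DUSP4 and SPRED2 lie near the line, and the G2/M genes (23) lie above it.

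5 genes had the largest differences in the other direction among genes called with a mean of at least 3 log2 CPM. DDIT4, an inhibitor of mTOR complex 1, rose by 1.21 ± 0.16 without palbociclib and fell by 0.39 ± 0.11 under it, a difference of -1.58 ± 0.22 (edgeR adjusted p = 2.13e-06). DEPTOR, another mTOR inhibitor, rose by 0.83 without palbociclib and fell by 0.43 under it, a difference of -1.24 ± 0.15 (edgeR adjusted p = 1.18e-07). PIK3IP1, a PI3 kinase inhibitor, rose by 1.10 without palbociclib and had -0.00 under it (difference -1.09, edgeR adjusted p = 0.00454). FBXO6 had 0.31 without palbociclib and -0.69 under it (difference -0.98, edgeR adjusted p = 0.00327), and IVL is given above. ELF3, KRT8 and KRT19 rose in both settings, with differences of -0.45, -0.52 and -0.65 under palbociclib (edgeR adjusted p = 0.00909, 0.0203 and 0.00708).

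In the FGFR1 line, FIIN-3 on the same palbociclib and FGF2 background called 1737 of 10631 genes (16.3%), 8.84% higher and 7.5% lower. FGFR1 was at 1093 to 1395 CPM without FIIN-3 in that line and at 432 to 1364 CPM with it, against 1.64 to 10.5 CPM in the control lines without FIIN-3. Pairs of FGFR1-line libraries with FIIN-3 differed by up to 43.6 chi-square per degree of freedom, against up to 7.03 without it. Leaving out libraries of that line was not tested. The FIIN-3 effect in the FGFR1 line differed from that of the control lines for 755 of 11592 genes (6.51%). The value was higher in the FGFR1 line for 3.61% of genes tested and lower for 2.91%, so 55.4% of these genes had the higher value there; limma called 797 genes, of which 29.4% had the higher value. DUSP6 fell from a median of 145.4 CPM (115.1 to 191.6) to 4.87 CPM (3.35 to 9.27) in the FGFR1 line, 25.6-fold, and the difference from the control lines was -2.15 ± 0.32 (edgeR adjusted p = 1.36e-05). With FIIN-3 its range in the FGFR1 line lay within that of the control lines, 0.595 to 9.63 CPM. IVL fell 16.9-fold in the FGFR1 line, to a median of 14.04 CPM (difference -1.75 ± 0.26, edgeR adjusted p = 1.43e-05). DUSP4 and SPRED2 did not differ detectably, at -0.55 ± 0.28 and -0.18 ± 0.30 (edgeR adjusted p = 0.255 and 0.793).

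Among genes called with a mean of at least 3 log2 CPM, the largest differences between the FGFR1 line and the control lines were those of TNS4, TIMP1, TMEM52B and OLR1. TNS4, a focal adhesion protein, fell by 2.56 in the FGFR1 line and had 0.19 ± 0.23 in the control lines (difference -2.77 ± 0.34, edgeR adjusted p = 3.43e-07). TIMP1, a metalloproteinase inhibitor, fell by 3.46 in the FGFR1 line and by 0.77 in the control lines (difference -2.69, edgeR adjusted p = 7.74e-07), and PHLDA2 fell by 3.36 and 0.89 (difference -2.48, edgeR adjusted p = 1.28e-05). TMEM52B rose by 3.11, against 0.32 ± 0.18, and SULF1, a heparan sulfate sulfatase, by 2.72, against 0.28 ± 0.15 (edgeR adjusted p of the difference = 4.25e-07 and 3.08e-07). OLR1, a scavenger receptor, rose by 3.54 and 0.86, and PLCE1, a phospholipase, by 2.95 and 0.70 (differences 2.66 and 2.25, edgeR adjusted p = 9.2e-07 and 0.000103). KIAA1683 had a difference of 2.50 (edgeR adjusted p = 0.000693). The keratins KRT8 and KRT18 rose in the control lines and fell in the FGFR1 line, by 0.76 and 1.20 (differences -1.28 and -1.54, edgeR adjusted p = 2e-07 and 7.51e-09). The pseudogene KRT8P11 had a difference of -1.96, and its reads cannot be told apart from those of KRT8 with certainty.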

How the data were processed

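SMART-Seq2 RNA libraries of T47D cells were analysed from a deposited table of whole-number counts per gene symbol (54592 rows). A second table by the authors holds log2(TPM + 1) values. STAR and hg19 are named in the submitters' processing notes; the counter, annotation and versions are not given in the sources used here. Of the 647 sample columns in each table, 66 were used and 581 were not. Genes passed edgeR's filterByExpr (minimum count 10, by arm) and were fitted with TMM factors and the quasi-likelihood test (edgeR 4.0.16, R 4.3.3), with line as a factor, Benjamini-Hochberg adjustment over all tested genes and a threshold of 0.05. Standard errors derive from the F statistic. A gene can pass the filter through the libraries of 1 arm alone, and the p-values of such genes are no separate support for a change. Main-arm depths are 1724453 to 4283576 counts, which limits precision for genes under about 10 reads. Libraries below 0.333 of the median of the analysed libraries of their set would count as shallow (0 did); 1 had under 5% MT-RNR2. Libraries of a group differed beyond counting noise in all 152 pairs (chi-square per degree of freedom at least 2.64). Alternatives were DESeq2 1.42.0 (test, and size factors in edgeR), no filter, limma 3.58.1 on the second table, another TMM reference library, a block, single lines and omitted libraries. For the main comparison the fit was run on counts simulated from its own model over 10717 genes. Spreads were those estimated from these libraries, with independent libraries and no line effect. Of genes changed 1.5-, 2- and 4-fold, 59.7%, 91% and 100% were recovered, with 9 false calls (5.11% of calls). Such a run cannot show the effect of a batch or of technical replicates. Named genes were 13 markers, the 15 largest changes per direction (mean log2 CPM of at least 3, 1 sign in both lines), up to 5 genes with the smallest p per list and up to 5 per direction of each difference between settings; other list members are named as counts require. Genes and the 25 lists were chosen with earlier results of these data known; 2 genes of the cascade list are not reported here. Sequences are RefSeq's.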

Additional observations from a re-analysis of the deposited data

Results flagged for a closer look

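In 67 tests for an outlying library, each on 1 library measure or 1 marker gene within a group, 12 flagged a library. The tests share groups and libraries. For ETV4 and ETV5 the flag follows whenever a single library holds all reads of its group, so the number flagged is not set against chance. The GFP palbociclib-alone library 3 had the fewest detected genes of 6, 15004, and the parental library 3 with palbociclib and FGF2 had the highest total of 4, 4283576 counts. CCND1 reached 148.8 CPM in the GFP library 4 with FIIN-3, the highest of 6 and still below every library without FIIN-3. MKI67 reached 6.451 CPM in that library and 8.325 CPM in the parental library 2 with FIIN-3. SPRED1 reached 3.194 CPM in the GFP library 5 with FIIN-3, and SPRY4 was lowest, at 0.8156 CPM, in the parental library 2 without it. ETV4 was above 0 in a single library of each group, at 0.5494 CPM (GFP) and 1.259 CPM (parental) without FIIN-3 and at 0.2676 and 1.021 CPM with it. ETV5 was highest in the parental library 3 without FIIN-3, at 1.041 CPM.

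The FIIN-3 effect differed with and without palbociclib for 555 genes by edgeR's test of the difference. The named differences with a higher value under palbociclib, on the log2 scale, were MKI67 at 2.81, IQGAP3 at 2.45, PLK1 at 2.35, AURKB at 2.23 and SLC43A3 at 2.17; MKI67, IQGAP3, AURKB and SLC43A3 did not pass the count filter of the palbociclib arms. Those with a lower value were DDIT4 at -1.58, DEPTOR at -1.24, IVL at -1.19, PIK3IP1 at -1.09 and FBXO6 at -0.98. Between the FGFR1 line and the control lines the effect differed for 755 genes. The higher values in the FGFR1 line were TMEM52B at 2.78, OLR1 at 2.66, KIAA1683 at 2.50, SULF1 at 2.44 and PLCE1 at 2.25. The lower values were TNS4 at -2.77, TIMP1 at -2.69, PHLDA2 at -2.48, DUSP6 at -2.15 and KRT8P11 at -1.96.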

How the results depend on the processing

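For FIIN-3 on palbociclib plus FGF2 in the control lines, 9.82% of genes tested were called. The share was 3.25% in the parental line alone and 4.89% in the GFP line alone, where fewer libraries were fitted, and 8.63% to 9.76% when 1 library at a time was left out. The count was 1065 with DESeq2 size factors, 951 with no filter, 1201 with DESeq2 and 1110 with limma. For FGF2 under palbociclib the share called was 1.12% as reported, 2.01% with no filter (645 genes of more tested), 2.58% with DESeq2, 0.493% with limma (63 genes) and 3.82% without the parental palbociclib-alone library that stood apart (replicate 4), with a leave-one-out range of 0.886% to 3.82%. Of its calls 71.7% were higher as reported, 31.9% with no filter, 59.2% without that library and 90.5% with limma, which shifted the median of all genes by 0.19. For the triple combination against palbociclib alone the share was 0.329% as reported, 1.22% with no filter, 0.948% with DESeq2, 0.103% with limma (13 genes) and 1.7% without the same library, with a leave-one-out range of 0.233% to 1.7%. Of its calls 94.3% were higher as reported, 15.8% with no filter, 71.3% with DESeq2 and 64.4% without that library. The line difference gave 0.013% (4 genes) with no filter, and 0 with 1 library left out. Beyond the omitted library and the smaller fits, the cause of these shifts was not tested.

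With the replicate block by range of title numbers the shares were 10.3%, 1.16% and 0.357% for these 3 comparisons, 0 for the line difference, 5.54% for the palbociclib difference and 6.44% for the FGFR1 difference. The block's 735 calls for the palbociclib difference held 66.8% of the 555 reported. Same-range libraries of the 2 main arms did not deviate together (Pearson r across genes of -0.016, -0.139 and 0.037). Each mean in that check rests on few libraries, so it cannot exclude a pairing or a batch by range. The other arms were not checked. GAB1 and BUB1 did not pass with the block (adjusted p = 0.0525 and 0.0558). Leaving out 1 library of the groups of 5 or fewer (13 fits each) gave 3.68% to 4.28% for the palbociclib difference and 5.82% to 6.36% for the FGFR1 difference; the larger groups were not left out. A TMM reference library without palbociclib, chosen after seeing the data, gave 4.88% for the palbociclib difference, with 518 of the reported calls among its 647.

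Named genes were picked in part by their values in these same libraries, so signs kept in subsets of the libraries are no separate support. Of 97 named genes called in the main comparison, 92 kept their sign in all 3 ranges of title numbers taken alone, and BUB1 had a value in the first range only. In that range B2M was at -0.0059, MT-CO3 at -0.0492 and MT-CO2 at -0.0162, and in the second range ERBB2 was at -0.0274, against increases over all libraries; the cause was not tested. With limma 20 of the named genes no longer passed, and with no filter 5 did not; 40 did not in the parental line alone and 27 in the GFP line alone. Leaving out 1 library ended the call of 13 of the 97 in at least 1 fit, and of GAB1, ATF3 and BUB1 in most. Depth limits the inducible genes SPRY4, ETV4, ETV5 and EGR1, which had too few reads for a test.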
